A study of Mus musculus with 17 samples.

Results

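Chemokines are small secreted proteins that direct the movement of leukocytes, and the genes described here encode the chemokines of the Ccl and Cxcl families, their receptors of the Ccr and Cxcr families, and the atypical receptors of the Ackr family. A gene was included where its symbol began with one of these family names followed by a digit in the expression table of tumor cells, TRMs or MDMs, the last 2 being populations labelled as macrophages. That pattern gave 38 of 17555 genes, 26 ligands and 12 receptors, after 3 other matching genes were left out. Tumor cells had values for 35 of the 38 genes, TRMs for 26 and MDMs for 28, and 21 genes had values in all 3 populations.

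The 12 libraries were poly(A) RNA-seq profiles of cells isolated by FACS from mouse lung tumors, 2 KL and 2 KLG4 libraries for each population. KL mice carried an oncogenic allele that Cre turns on and Lkb1 fl/fl, from which Cre removes Lkb1. KLG4 mice carried in addition Gpx4 m/m, an allele with rox sites from which Gpx4 exons are removed by a tamoxifen-dependent Dre recombinase that itself needs Cre to be switched on. Both genotypes received Ad-Cre, an adenovirus that carries Cre, through the nose and then tamoxifen, and cells were taken 10 weeks after Ad-Cre, so the Gpx4 allele is what separates the groups by design. The Dre recombinase is driven by the broadly active CAG promoter, so the cells it acts in are set by where Ad-Cre has reached. The study found the Gpx4 locus rearranged selectively in sorted tumor cells. It found GPX4 protein lower in those cells, but not in endothelial, stromal or CD45-positive immune cells. The macrophages were not examined there apart from other immune cells. Tumor cells were sorted as negative for CD45 and CD31 and positive for EpCAM, and the gate for the macrophages is not given in the sources used here. Mice were 8 to 10 weeks old when Ad-Cre was given. The labels do not say which animal a library came from or whether animals were pooled. Each tumor cell library held RNA of both sexes, as given below, and so of more than a single animal. The p-values therefore measure the spread between libraries, which may be technical. The other 5 samples of the series, CD8+ T cells and monocytes, were not analysed here.

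Chemokine receptors are G protein-coupled receptors, and a cell moves up the gradient of the ligands its receptors bind. In the lung, Cxcl1, Cxcl2, Cxcl3 and Cxcl5 act on Cxcr2 of neutrophils, Ccl2 and Ccl7 draw monocytes, Cxcl9 and Cxcl10 draw activated T cells, and Cxcl12, Cxcl13 and Ccl21a place lymphocytes in tissue. Atypical receptors bind chemokines without G protein signalling and remove them.

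The libraries differed in depth and content, which touches each result below. The recovered depth ranged from 9140749 to 36616983 counted reads per library. The KLG4 tumor cell libraries carried more RNA of other cell types than the KL ones. The summed level of 8 leukocyte genes was 20.6 and 26.6 RPKM (read counts divided by gene length and by library depth) in the KL libraries and 241 and 242 RPKM in the KLG4 libraries, with 8 of 8 genes higher in both KLG4 libraries. Ptprc, which encodes the CD45 that the sort excluded, was at 0.834 and 2.06 RPKM in KL and 26.7 and 27.4 RPKM in KLG4. The sum of 7 fibroblast genes was 375 and 374 against 11.1 and 16.1 RPKM (7 of 7 higher), that of 8 listed neutrophil genes 2684 and 2607 against 619 and 578 RPKM (7 of 8 higher), and that of 9 T cell genes 37.9 and 41.4 against 1.49 and 1.78 RPKM (9 of 9 higher). The sums of 7 epithelial and 8 type 2 alveolar (AT2) genes were lower in KLG4, at 3577 and 3586 against 8338 and 6197 RPKM and at 1247 and 1263 against 3614 and 4068 RPKM. In these bulk libraries more cells of a type and more RNA per cell cannot be told apart. The pair of KLG4 tumor cell libraries was also close to identical, with a chi-square of counts of 3.28 per gene against 28.9 to 131.5 in the other pairs, so calls in tumor cells may be overstated. Each tumor cell library held both the female-expressed gene Xist (4.17 to 6.18 RPKM) and the Y-linked gene Eif2s3y (7.27 to 9.26 RPKM). In TRMs, mitochondrial genes took 31.6% and 22.5% of reads in KL and 2.97% and 5.80% in KLG4, and Xist was at 0.257 and 0.501 RPKM in KL and 18.3 and 20.2 RPKM in KLG4, so that sex and genotype cannot be told apart there. The TRM libraries held the alveolar macrophage genes, with 0 of 8 at 0 and Chil3 at 2953 and 3150 RPKM in KL and 7512 and 6236 RPKM in KLG4. Their sum was 8486 and 8350 RPKM in KL and 12883 and 12029 RPKM in KLG4 TRMs, that of 11 monocyte-derived macrophage genes 472 and 509 against 948 and 804 RPKM (9 of 11 higher), and that of 6 neutrophil genes 236 and 152 against 115 and 85.4 RPKM (4 of 6 lower). The MDM libraries held both macrophage and neutrophil genes: the neutrophil gene S100a9 was at 9379 to 21106 RPKM and Csf3r at 208 to 323 RPKM, whereas Csf1r was at 24.3 to 41.2 RPKM and Adgre1 at 10.2 to 21.9 RPKM. The sum of 9 neutrophil genes was 10658 to 23372 RPKM in MDMs and that of 12 monocyte-derived macrophage genes 1239 to 1691 RPKM. Values below are those of the libraries labelled MDMs. KL replicate 2 of the MDMs stood apart, with epithelial, fibroblast and platelet sums of 255, 11.6 and 33.6 RPKM against at most 72.1, 2.36 and 5.07 RPKM in the other MDM libraries. Xist was at 0.839 RPKM in it and at 19.4 to 21.8 RPKM in the others.

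Few chemokines made up most of the chemokine RNA, and which ones they were differed between the populations. Summed over the genes, the level was 606 and 747 RPKM in KL tumor cells, 2710 and 2750 RPKM in KLG4 tumor cells, 4740 to 6360 RPKM in TRMs and 6690 to 7990 RPKM in MDMs. RPKM is per length of gene, so levels of different genes can be set side by side, but each population was deposited in a table of its own and levels were not tested across tables. Ccl6, a mouse ligand of Ccr1, led in TRMs at 4266 and 4239 RPKM in KL and 5313 and 5413 RPKM in KLG4, which was 86.2% of the summed mean. It was followed there by Cxcl2, Ccl9, Cxcl1 and Cxcl16, at 404 RPKM or less in every TRM library. In MDMs Cxcl2 led at 4300, 3320, 3720 and 3815 RPKM (KL replicates 1 and 2, then KLG4 replicates 1 and 2), ahead of Ccl6 at 2214, 2429, 2201 and 2373 RPKM. These 2 genes did not overlap in MDMs, and Ccl3, the next in order, was lower than either at 803, 329, 636 and 686 RPKM. In KL tumor cells the highest was Cxcl17, a ligand of mucosal epithelium, at 211 and 272 RPKM, and in KLG4 tumor cells it was Cxcl2 at 1368 and 1343 RPKM. The heat map of levels by library shows these leading genes and the members that a table does not list.

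**Figure D1:**
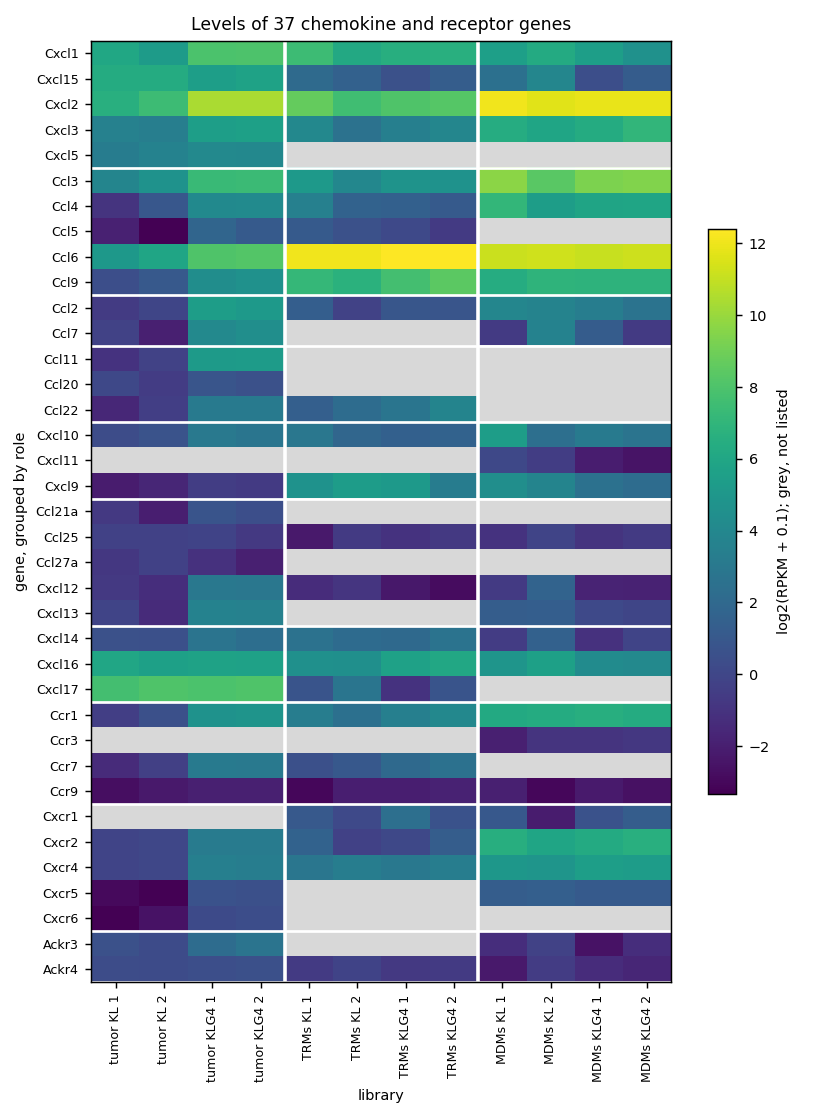
Level of 37 of the 38 genes in each of the 12 libraries, as log2(RPKM + 0.1), with genes in rows grouped by role and libraries in columns by population and genotype. Grey marks a gene that the table of that population does not list. Most genes are brighter in the 2 KLG4 tumor cell columns than in the 2 KL ones, whereas the columns within TRMs and within MDMs look alike.

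The first comparison asked how KLG4 tumor cells differ from KL tumor cells, the cells in which Gpx4 is removed. The chemokine genes were mostly higher in KLG4: 26 of the 31 that passed the filter (at least 1 RPKM in 2 of the 4 libraries) had an adjusted p under 0.05 and were higher, and 1 was lower. Over all 13770 genes tested, 20.6% were called higher and 19.6% lower. The median log2 fold change of the chemokine genes was 3.22, against -0.09 for all genes, on the log2(RPKM + 0.1) scale, which understates changes of low genes. At the threshold used in the study, an unadjusted p under 0.05 with at least a 2-fold difference, 25 were higher and 0 lower, against 16.6% higher and 7.26% lower of all genes. The rise ran together with that of the leukocyte, neutrophil, T cell and fibroblast genes given above, and their part in it was not tested. The filter bears on these counts. 17 of the 31 genes passed it only with a KLG4 library, so they entered where they were high and 16 of them were called higher, against 73.7% of all genes that entered in this way (1395 of 1894). Of the 14 that reached 1 RPKM in both KL libraries, 10 were called higher and 1 lower, against 12.2% and 22.7% of all 11876 such genes, with medians of 2.06 and -0.20. The ratio of the KLG4 to the KL mean ran from 1.5 to 84.4 over the 26, and for the summed markers it was 10.2 (leukocyte), 27.5 (fibroblast) and 4.42 (neutrophil). Most of the neutrophil sum in KL was Ltf, which epithelium also makes and which was not called, at 440 and 305 RPKM in KL and 427 and 445 RPKM in KLG4.

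Among the ligands of Cxcr2, Cxcl2 rose most in tumor cells. It was at 98.6 and 178 RPKM in KL and 1368 and 1343 RPKM in KLG4, with means of 138 ± 55.9 and 1355 ± 17.5 RPKM (SD, n = 2) and a log2 fold change of 3.36 (standard error, SE, 0.28, adjusted p 8.0e-04). Cxcl1 was at 65.5 and 39.4 RPKM in KL and 252 and 258 RPKM in KLG4 (2.32, SE 0.25, adjusted p 0.0016). Both genes were thus already expressed in KL libraries, and the groups did not overlap. Cxcl3 was at 12.1 and 10.4 against 44.7 and 48.9 RPKM (2.05, SE 0.14, adjusted p 4.7e-04), and Cxcl5 moved least, from 9.48 and 12.7 to 17.1 and 16.1 RPKM (0.59, adjusted p 0.046). The last member of this group, Cxcl15, is a neutrophil chemokine made by lung epithelium and went the other way. It was at 82.1 and 80.0 RPKM in KL and 45.0 and 52.5 RPKM in KLG4, a log2 fold change of -0.74 (SE 0.13, adjusted p 0.0080). The 2 groups did not overlap, but the call was lost without KLG4 replicate 1 (-0.62, adjusted p 0.13) or KLG4 replicate 2 (-0.85, adjusted p 0.075). A fit that leaves out 1 library has a group of 1, which is assumed to vary like the groups that remain. Cxcl15 fell to 0.602 of its KL mean while the epithelial genes fell to 0.493 and the AT2 genes to 0.327 of theirs.

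These ligands are neighbors. Cxcl5, Cxcl3, Cxcl15, Cxcl1 and Cxcl2 lie in this order within 146.6 kb of chromosome 5 (90759360 to 90905938, GRCm38), all on the plus strand, so the gene that fell lies between those that rose. The 120 bases before the RefSeq start site are printed for 4 of them, all but Cxcl5 (RefSeq, GRCm38.p6, plus strand, 5′ to 3′), in the order of the genome, because 3 members that rose can be set beside the one that fell. Capitals mark matches to GGNNTTTCC on either strand (GGAAANNCC when read on the plus strand), the 9-letter core bound by the NF-kB family of inflammatory transcription factors. The stretches are chr5:90785981-90786100, chr5:90794414-90794533, chr5:90891125-90891244 and chr5:90903779-90903898.
Cxcl3: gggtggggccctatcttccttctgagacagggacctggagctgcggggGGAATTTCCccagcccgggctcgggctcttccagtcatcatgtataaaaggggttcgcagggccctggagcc
Cxcl15: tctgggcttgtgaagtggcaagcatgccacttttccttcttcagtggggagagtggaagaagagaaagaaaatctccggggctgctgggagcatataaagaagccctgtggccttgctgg
Cxcl1: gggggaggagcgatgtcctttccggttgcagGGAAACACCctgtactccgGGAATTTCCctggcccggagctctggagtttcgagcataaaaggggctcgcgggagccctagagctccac
Cxcl2: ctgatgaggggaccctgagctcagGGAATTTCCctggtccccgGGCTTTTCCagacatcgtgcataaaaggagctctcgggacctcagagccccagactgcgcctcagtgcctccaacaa
Cxcl3 had 1 match and Cxcl1 and Cxcl2 had 2 each in the 250 bases before the start, whereas Cxcl15 had 0. Of the 26 chemokine genes with a promoter in the RefSeq table, 9 (34.6%) held a match in 250 bases, against 5.62% of 27025 genes and 4.93% of 32851 promoters in all. The others with a match were Ccl9, Ccl20, Cxcl9, Cxcl10, Ackr4 and Ccr3. Cxcl5, which also rose, was not among the genes with a match, and whether it had a promoter in the RefSeq table is not given here. A match describes the letters only. It was not a measure of binding, and Ackr4, which held one, was at 1.16 and 1.10 RPKM in KL and 1.27 and 1.33 RPKM in KLG4 tumor cells.

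All 5 inflammatory CC ligands of a second group, Ccl3, Ccl4, Ccl5, Ccl6 and Ccl9, were called higher in KLG4 tumor cells. Ccl4, Ccl5 and the receptor Ccr1 passed the filter only with a KLG4 library, as did genes of which 73.7% were called higher. The count of 5 is therefore no support for a rise of the group. Ccl3, Ccl6 and Ccl9 reached 1 RPKM in both KL libraries, where 12.2% of all genes were called higher. Ccl6 was at 33.1 and 61.2 RPKM in KL and 273 and 291 RPKM in KLG4 (log2 fold change 2.64, SE 0.29, adjusted p 0.0018). Ccl3 was at 14.3 and 26.2 against 161 and 167 RPKM (3.07, SE 0.29, adjusted p 0.0011). Ccl9, a second mouse ligand of Ccr1, was at 1.30 and 2.03 against 21.3 and 24.6 RPKM (3.73, SE 0.24, adjusted p 4.2e-04). In each of these genes both KLG4 libraries lay far above both KL libraries. Ccl4 was at 0.414 and 1.85 against 17.3 and 18.5 RPKM (4.16, SE 0.61, adjusted p 0.0047). Ccl5 was at 0.171 and 0 against 3.36 and 2.09 RPKM (4.07, adjusted p 0.0034), which rests on 6 and 0 counted reads in KL. Ccr1, a receptor for several of these ligands, rose with them and was at 0.656 and 1.31 RPKM in KL and 25.9 and 28.3 RPKM in KLG4 (4.72, SE 0.31, adjusted p 4.5e-04). Macrophage genes were higher in the same libraries: the sum of 8 alveolar macrophage genes was 47.7 and 66.8 RPKM in KL and 399 and 407 RPKM in KLG4 (6 of 8 higher, 2 lower), and that of 11 monocyte-derived macrophage genes 34.4 and 46.2 against 293 and 296 RPKM (11 of 11 higher). Their part in these values was not tested. Ccl5, Ccl9, Ccl6, Ccl3 and Ccl4 lie within 138.9 kb of chromosome 11 (83525778 to 83664683).

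Among the chemokine genes, the largest differences on the log2(RPKM + 0.1) scale in tumor cells belonged to 3 that were under 1 RPKM in KL and lie within 27.4 kb of chromosome 11 (82035571 to 82062955). These genes, and Ccl22 and Ccl20 below, passed the filter only with a KLG4 library, so they entered where they were high. Ccl11, the eosinophil chemokine eotaxin, was at 0.404 and 0.764 RPKM in KL and 38.3 and 40.2 RPKM in KLG4, a log2 fold change of 5.90 (SE 0.28, adjusted p 2.1e-04). Ccl2, a monocyte attractant, was at 0.576 and 0.872 against 42.9 and 35.5 RPKM (5.59, SE 0.23, adjusted p 1.5e-04). Ccl7, its neighbor with overlapping receptors, was at 0.75 and 0.165 against 16.8 and 21.8 RPKM (5.34, SE 0.55, adjusted p 0.0015). The ratio of the means was 67.2, 54.2 and 42.2 for Ccl11, Ccl2 and Ccl7, and it was larger, at 84.4, for Cxcr5, which had few reads in KL. The 7 fibroblast genes had log2 fold changes of 3.29 (Pdgfrb) to 6.05 (Lum) in the same libraries, with Dcn at 5.73 and the others at 4.24 or less, and their part in these values was not tested. Ccl22, a ligand made by dendritic cells and macrophages, was at 0.235 and 0.654 against 8.34 and 8.86 RPKM (4.11, SE 0.40, adjusted p 0.0013). Ccl20, the ligand of Ccr6, did not pass, at 0.961 and 0.582 against 1.67 and 1.41 RPKM (0.95, 95% interval 0.20 to 1.69, adjusted p 0.052).

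Ligands that place lymphocytes in tissue and their receptors were called higher in KLG4 tumor cells as well. Cxcl12, Cxcl13, Ccl21a, Cxcr4, Cxcr5 and Ccr7 are among the genes that passed the filter only with a KLG4 library, so their count is no support for a rise of the group. Cxcl12, made by stromal cells, was at 0.508 and 0.324 RPKM in KL and 7.76 and 7.30 RPKM in KLG4 (log2 fold change 3.91, SE 0.25, adjusted p 4.0e-04). Its receptor Cxcr4 was at 0.846 and 0.933 against 10.8 and 9.94 RPKM (3.40, SE 0.17, adjusted p 2.5e-04), and Ackr3, the atypical receptor that scavenges Cxcl12, at 1.38 and 1.11 against 4.59 and 6.57 RPKM (2.07, SE 0.25, adjusted p 0.0025). Cxcl13, the B cell attractant, was at 0.855 and 0.288 against 12.2 and 11.8 RPKM (4.32, SE 0.43, adjusted p 0.0013), and its receptor Cxcr5 at 0.0328 and 0 against 1.43 and 1.34 RPKM (3.69, adjusted p 7.4e-04), with 4 and 0 counted reads in KL. Ccl21a was at 0.502 and 0.152 against 1.56 and 1.30 RPKM (1.97, adjusted p 0.021), and its receptor Ccr7 at 0.276 and 0.702 against 8.34 and 7.94 RPKM (3.91, SE 0.38, adjusted p 0.0012). The B cell genes of the marker list summed to 0.938 and 1.11 RPKM in KL and 6.44 and 6.16 RPKM in KLG4, with 6 of 6 higher, and the 6 listed dendritic cell genes to 1.23 and 2.15 against 18.3 and 18.4 RPKM, and their part in these values was not tested. Ccl25 and Ccl27a stayed under 0.8 RPKM in each tumor cell library and were not tested.

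Cxcr2 and Cxcr6 rose, whereas the atypical receptor Ackr4 did not pass (log2 fold change 0.19, adjusted p 0.50), nor did Cxcl16 and Cxcl17, which lung epithelium makes. Both Cxcr2 and Cxcr6 passed the filter only with a KLG4 library, so they entered where they were high. Cxcr2, the receptor of the neutrophil ligands above, was at 0.842 and 0.933 RPKM in KL and 9.04 and 9.19 RPKM in KLG4 tumor cells (log2 fold change 3.22, SE 0.17, adjusted p 2.9e-04), a ratio of means of 10.3. Cxcr6, the receptor of Cxcl16 on T cells, was at 0 and 0.0685 against 1.06 and 1.24 RPKM (3.26, adjusted p 0.0019), with 0 and 4 counted reads in KL. Cxcl10, an interferon-induced ligand, was at 1.14 and 1.53 against 7.93 and 6.69 RPKM (2.38, SE 0.22, adjusted p 0.0010), whereas Cxcl9 of the same family was under 0.7 RPKM in each library and was not tested. Cxcl14 was at 1.41 and 1.36 against 6.59 and 5.03 RPKM (1.98, SE 0.21, adjusted p 0.0016). Cxcl17, the highest chemokine of KL tumor cells, was at 211 and 272 RPKM in KL and 248 and 273 RPKM in KLG4 (0.12, 95% interval -0.28 to 0.51, adjusted p 0.59). Cxcl16, a membrane-anchored chemokine, was at 63.1 and 49.4 against 53.7 and 52.0 RPKM (-0.08, 95% interval -0.46 to 0.30, adjusted p 0.70). Both results depended on 1 library: without KL replicate 2, Cxcl17 was called higher (0.30, adjusted p 0.024) and Cxcl16 lower (-0.26, adjusted p 0.027). The spread in that fit came from the close to identical KLG4 pair alone. Epcam was at 638 and 420 RPKM in KL and 215 and 211 RPKM in KLG4. Per unit of Epcam, Cxcl17 was 0.331 and 0.647 in KL and 1.15 and 1.29 in KLG4, Cxcl16 was 0.099 and 0.118 against 0.25 and 0.246, and Cxcl15 was 0.129 and 0.191 against 0.21 and 0.249. These ratios were chosen after the values were seen and not tested.

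**Figure D2:**
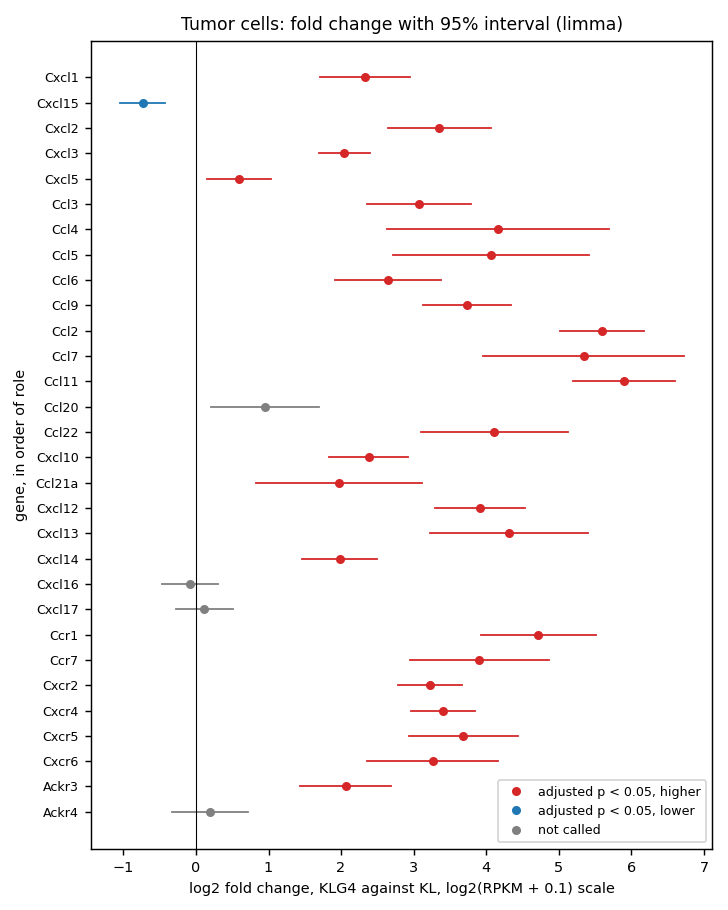
Log2 fold change of 30 of the 31 tested genes between KLG4 and KL tumor cells, on the log2(RPKM + 0.1) scale, with points for the estimate, bars for its 95% interval and genes ordered by role. Red points (25 genes) were called higher and the blue point (Cxcl15) lower at an adjusted p under 0.05, and Cxcl16, Cxcl17, Ccl20 and Ackr4 in grey were not called.

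A pair of further ratios, also chosen after their values were seen, set a chemokine against a gene of other cells. Cxcl2 divided by the neutrophil gene S100a9 was 0.596 and 0.717 in KL and 0.690 and 0.712 in KLG4 tumor cells, while both genes rose. In MDMs it was 0.204 and 0.354 in KL and 0.208 and 0.237 in KLG4, and in TRMs 2.12 and 1.64 in KL and 2.88 and 4.98 in KLG4. Ccl6 divided by the alveolar macrophage gene Chil3 was lower in KLG4 in each population, at 3.40 and 3.43 in KL and 1.43 and 1.51 in KLG4 tumor cells, 1.44 and 1.35 against 0.707 and 0.868 in TRMs, and 3.58 and 2.85 against 2.47 and 2.66 in MDMs. The ratios were not tested. Of the 26 genes called higher in tumor cells, 23 were called higher under each of the 11 alternatives, and the exceptions were Ccl4, Ccl21a and Cxcl5. These 3 calls were lost without either KLG4 library, with adjusted p-values of 0.053 to 0.27, and that of Ccl21a also under quantile scaling (adjusted p 0.11).

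The second comparison set KLG4 against KL in TRMs. Here most chemokine genes could not be separated from the spread between libraries: of the 22 that passed the filter, 1 was called higher and 0 lower at an adjusted p under 0.05, against 1.36% and 0.437% of all 10990 genes, and 5 had an unadjusted p under 0.05, against 28.3% of all genes. Their median log2 fold change was 0.09, against 0.38 for all genes, but this order rested on 1 library: it was 0.67 against 0.26 without KL replicate 1 and -0.38 against 0.48 without KL replicate 2. That shift of 0.38, in libraries whose mitochondrial share differed by genotype, fell to 0.02 under TMM scaling and to -0.00046 when libraries were scaled to reads outside mitochondrial genes, which left chemokine medians of -0.28 and -0.30. At the threshold of the study 5 were higher and 0 lower, against 12% and 2.04% of all genes, but the split was 2 higher and 4 lower under TMM scaling (4.59% and 3.53% of all genes), 1 and 4 under scaling outside mitochondrial genes (4.38% and 3.67%), and 4 and 4 under quantile scaling (4.09% and 4.03%).

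The gene called in TRMs was Cxcl16, which macrophages also use as a scavenger receptor. It was at 24.0 and 23.0 RPKM in KL and 50.1 and 69.5 RPKM in KLG4 (log2 fold change 1.32, SE 0.21, adjusted p 0.047), so both KLG4 libraries lay above both KL ones. Relative to the shift of all genes its difference was smaller, at 0.95 under TMM scaling (adjusted p 0.12) and 0.93 outside mitochondrial genes (adjusted p 0.13). The call was also lost without KL replicate 1 (1.35, adjusted p 0.075) or KLG4 replicate 2 (1.09, adjusted p 0.10). The others past the threshold of the study, among them Ccr7, Ccl22 and Ccl9, had higher values in KLG4 without passing the adjusted test. Ccr7, the lymph node homing receptor, was at 1.31 and 1.94 against 4.04 and 5.68 RPKM (1.53, SE 0.34, adjusted p 0.070), and Ccl22 was at 2.58 and 4.71 against 6.71 and 13.8 RPKM (1.44, SE 0.44, adjusted p 0.11). Ccl9 was at 143 and 104 against 209 and 346 RPKM (1.14, SE 0.29, adjusted p 0.085). The KLG4 libraries of each of these lay above the KL ones, and under the 3 other scalings the differences stayed positive, from 0.74 to 1.17. The 6 listed dendritic cell marker genes, a cell type in which Ccr7 and Ccl22 are high, summed to 4.27 and 9.39 RPKM in KL and 18.6 and 18.4 RPKM in KLG4, with 5 of 6 higher. Their part, and that of the macrophage genes that differed between TRM genotypes, in the values of Cxcl16, Ccl9, Ccr7 and Ccl22 was not tested.

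Other chemokines of TRMs were close between genotypes or leaned lower. Ccl6 had a log2 fold change of 0.33 (95% interval -0.06 to 0.73, adjusted p 0.23) at the levels given above, and the sign turned under TMM scaling (-0.04) and outside mitochondrial genes (-0.06). Cxcl2 was at 404 and 191 RPKM in KL and 270 and 309 RPKM in KLG4 (0.06, 95% interval -0.80 to 0.91, adjusted p 0.93), and Cxcl1 at 172 and 72.8 against 91.7 and 96.9 RPKM (-0.25, adjusted p 0.70). In both genes the KLG4 libraries lay between the KL ones. The lymphocyte ligands Ccl5, Cxcl9 and Cxcl10 had log2 fold changes of -1.10, -0.79 and -0.79 (adjusted p 0.21 to 0.42). Cxcl15 and Cxcl17, epithelial genes, had -0.91 and -1.92 (adjusted p 0.19 and 0.20), and the AT2 marker sum was 170 and 180 RPKM in KL and 31.6 and 65.5 RPKM in KLG4, with 5 of 8 lower. Under each of the 3 other scalings Ccl5, Cxcl10, Cxcl15 and Cxcl17 passed the threshold of the study as lower. The plot of TRM fold changes under the 4 scalings shows that nearly all genes move left together. The count of calls depended on single libraries: it was 0 higher without KL replicate 1, 3 higher (Ccl22, Ccr7, Cxcl16) and 3 lower (Ccl4, Cxcl1, Cxcl10) without KL replicate 2, 2 higher (Ccl9, Cxcl16) and 1 lower (Cxcl9) without KLG4 replicate 1, and 0 higher without KLG4 replicate 2. Of all genes, 20.1% were called higher and 1.59% lower without KL replicate 2, and 0.701% and 0.673% without KLG4 replicate 1.

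**Figure D3:**
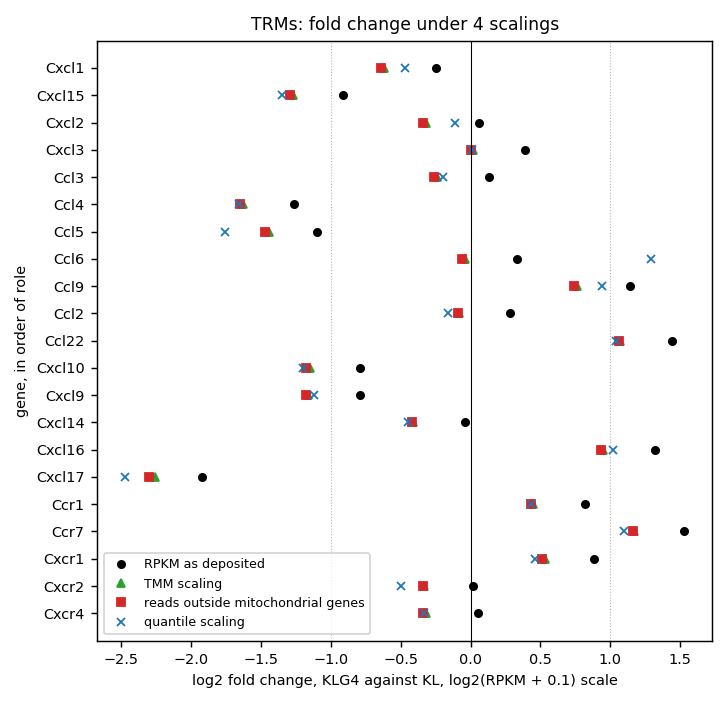
Log2 fold change of 21 of the 22 tested genes between KLG4 and KL TRMs, on the log2(RPKM + 0.1) scale, for RPKM as deposited (black), TMM scaling (green), scaling to reads outside mitochondrial genes (red) and quantile scaling (blue crosses); dotted lines mark a 2-fold difference. The other scalings lie to the left of the deposited values for each gene except Ccl6 under quantile scaling, at 1.29.

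The third comparison set KLG4 against KL in MDMs, and no chemokine gene was called. By limma 0 of the 20 that passed the filter were higher and 0 lower at an adjusted p under 0.05, as for all 10475 genes (0.0% and 0.0%), while 6 of the 20 had an unadjusted p under 0.05, against 6.74% of all genes. Limma on recovered reads (limma-voom) also called 0 of 19, with 4 at an unadjusted p under 0.05, against 6.71%. Their median log2 fold change was -0.31, against 0.02 for all genes. At the threshold of the study 0 were higher and 4 lower, against 1.03% and 3.07% of all genes. Cxcl9 was at 21.5 and 13.5 RPKM in KL and 5.77 and 4.54 RPKM in KLG4 (-1.72, SE 0.32, adjusted p 0.68). Cxcl15 was at 5.57 and 14.8 against 1.28 and 2.24 RPKM (-2.35, SE 0.57), Cxcl13 at 2.44 and 2.51 against 1.00 and 0.869 RPKM (-1.32, SE 0.30), and Cxcl16 at 28.8 and 49.1 against 19.4 and 16.7 RPKM (-1.06, SE 0.32), each with an adjusted p of 0.68. The KLG4 libraries of all 4 genes lay below the KL ones. The AT2 sum was also lower in KLG4 MDMs, at 40.9 and 73.8 against 158 and 379 RPKM (7 of 8 genes lower). The epithelial sum was 18.4 and 58.9 against 72.1 and 255 RPKM (5 of 6 lower, 0 higher). The fibroblast sum was 1.49 and 1.46 against 2.36 and 11.6 RPKM (5 of 5 lower). The part of these sums in the values of Cxcl15, Cxcl16 and Cxcl13 was not tested.

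Single libraries decided much of this. Without KL replicate 1, which leaves the KL library that stood apart as the only one, 2 chemokine genes were called higher (Ccl3 and Cxcr1) and 5 lower (among them Cxcl9, Cxcl13, Cxcl15 and Cxcl16), against 11.4% higher and 14.2% lower of all genes. The spread in that fit came from the 2 KLG4 libraries alone. Without KL replicate 2, 0 were called, and the 4 genes above kept their direction at -2.05 for Cxcl9, -1.66 for Cxcl15, -1.30 for Cxcl13 and -0.67 for Cxcl16. Ccl7 was at 0.538 and 12.3 RPKM in KL and 2.25 and 0.528 RPKM in KLG4, and Cxcl10 at 42.5 and 5.31 against 8.59 and 6.65 RPKM, so that in each 1 KL library set the mean. The most abundant genes overlapped between genotypes: Cxcl2 had a log2 fold change of -0.0045 (95% interval -0.63 to 0.62), Ccl6 of -0.02 (-0.56 to 0.51) and Ccl3 of 0.36 (-0.85 to 1.57). Ccl9 was at 84.2 and 122 against 114 and 113 RPKM (0.16, -0.49 to 0.81), and Cxcl3 at 85.3 and 61.8 against 80.8 and 129 RPKM (0.49, -0.35 to 1.33). Among receptors Cxcr2 was at 91.2 and 61.3 against 77.2 and 95.9 RPKM (0.20, -0.53 to 0.93) and Ccr1 at 75.5 and 81.2 against 92.7 and 83.1 RPKM (0.17, -0.33 to 0.66). Cxcr4 was at 31.4 and 29.7 against 44.5 and 41.6 RPKM (0.49, adjusted p 0.68), without overlap. Cxcr2 was thus at 61.3 to 95.9 RPKM in the libraries labelled MDMs and at 0.718 to 3.02 RPKM in those of TRMs, beside neutrophil marker sums of 10658 to 23372 and of 85.4 to 236 RPKM.

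**Figure D4:**
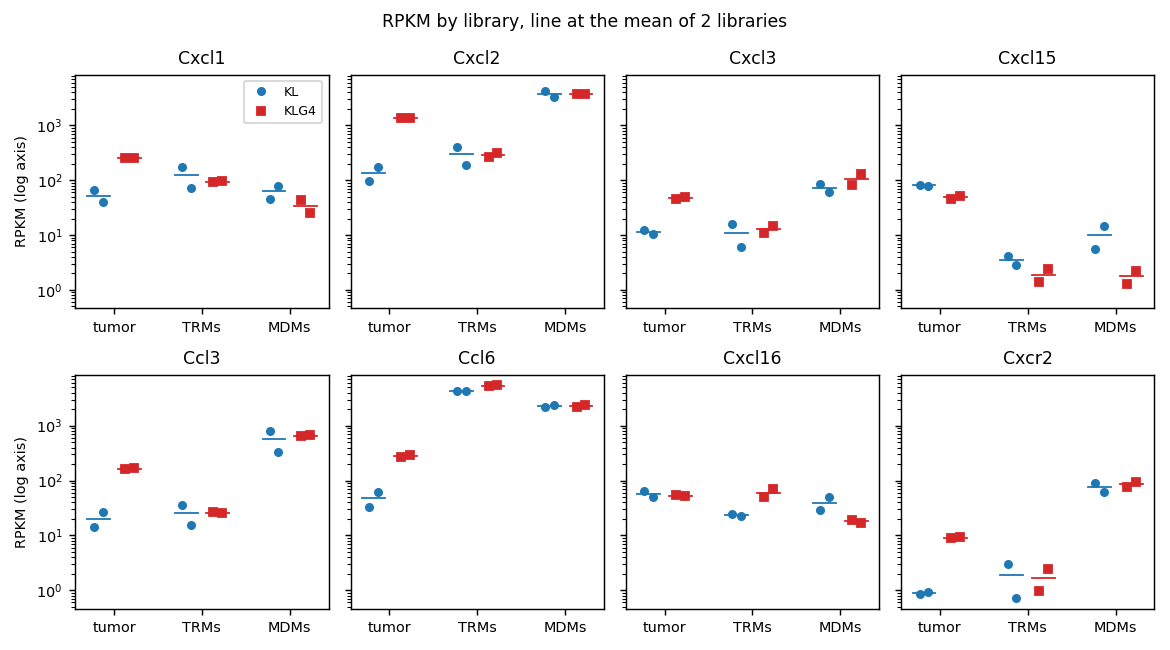
RPKM of 8 genes in each library (log axis), by population, with circles for KL, squares for KLG4 and a line at the mean of 2 libraries. Cxcl1, Cxcl2, Cxcl3, Ccl3, Ccl6 and Cxcr2 are higher in KLG4 than in KL tumor cells and Cxcl15 is lower, while Cxcl16 is higher in KLG4 TRMs and lower in KLG4 MDMs.

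The KLG4 to KL differences were then compared between populations, each difference being taken within its own table. Limma tested the difference of the differences for the 11506 genes, 19 of them chemokine genes, that all 3 tables list and that reached 1 RPKM in at least 2 of the 12 libraries. Cxcl9, Cxcl12, Cxcl14 and Ackr4 entered in this way although they failed the filter in 1 or more of the single tables, so their differences depend on the pseudocount. Between tumor cells and TRMs 12 of the 19 were called at an adjusted p under 0.05 (11 with the larger difference in tumor cells), against 20.3% of all genes. Between tumor cells and MDMs 14 were called, all with the larger difference in tumor cells, against 12.1% of all genes. Of the 15 that passed the filter in each table, 11 were called in each of these comparisons. The count of 14 was 9 without tumor cell KL replicate 1, without either tumor cell KLG4 replicate or without MDM KLG4 replicate 1, where 7.02% to 8.43% of all genes were called. Cxcl2, Ccl2, Ccr1 and Cxcr4 were called in both, with differences in log2 fold change of 3.30 and 3.36 for Cxcl2, 5.32 and 6.42 for Ccl2, 3.90 and 4.55 for Ccr1 and 3.35 and 2.91 for Cxcr4 (to TRMs and to MDMs). Both comparisons share the tumor cell libraries, whose leukocyte and fibroblast genes differed between genotypes as given above. Between TRMs and MDMs 1 was called, against 0.226% of all genes. This was Cxcl16, with a log2 fold change of 1.32 in TRMs and -1.06 in MDMs, a difference of 2.38 (SE 0.37, adjusted p 0.040). The call was lost under quantile scaling, TMM scaling and scaling outside mitochondrial genes (2.07, 1.98 and 2.05, adjusted p 0.12 to 0.13) and with a pseudocount of 1 (2.31, adjusted p 0.052). With the replicate number as a block the call was lost as well. It was also lost without TRM KL replicate 1 (2.41), TRM KLG4 replicate 1 (2.62) or 2 (2.15), or MDM KLG4 replicate 1 (2.49) or 2 (2.27), at adjusted p-values of 0.069 to 0.20. Without MDM KL replicate 1, 5 of the 19 chemokine genes were called between TRMs and MDMs, against 19.8% of all genes.

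**Figure D5:**
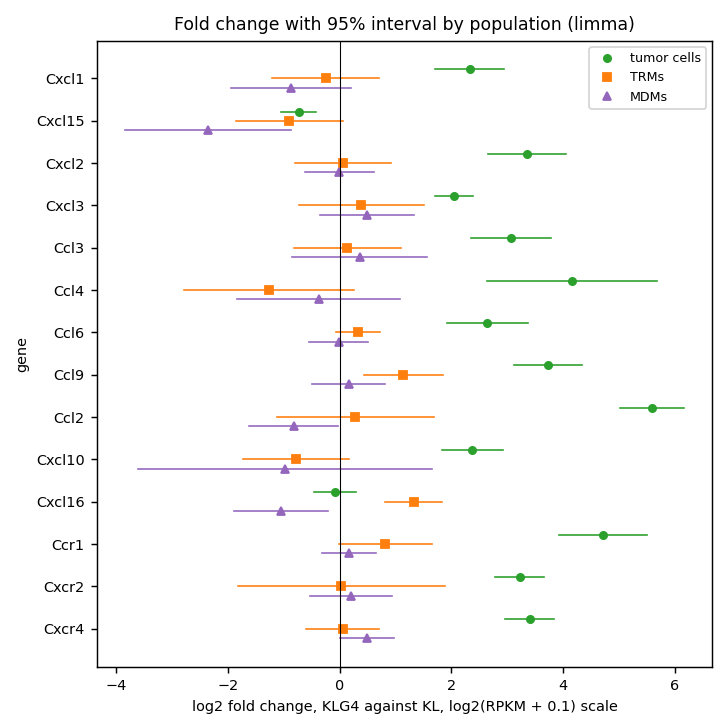
Log2 fold change between KLG4 and KL with its 95% interval for 14 genes tested in all 3 populations, in tumor cells (circles), TRMs (squares) and MDMs (triangles), on the log2(RPKM + 0.1) scale. In tumor cells 12 of the 14 lie above 0 with intervals that exclude it, while Cxcl15 lies below 0 in each population and Cxcl16 has opposite signs in TRMs and MDMs.

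Other genes of the pathway were then counted in tumor cells, where 20.6% of all genes were called higher and 19.6% lower. Of 7 tested genes for further chemokines, receptors and chemoattractants, 6 were called higher and 0 lower, among them Ccrl2, a non-signalling receptor (2.00 and 2.74 RPKM in KL, 19.8 and 18.9 RPKM in KLG4, log2 fold change 2.99), Cx3cr1 (2.70), Cmklr1 (3.04) and Rarres2, the precursor of the Cmklr1 ligand chemerin (2.43 and 2.75 against 24.1 and 28.3 RPKM, 3.29). Of 27 receptor signalling genes 18 were called higher and 2 lower. Hematopoietic genes such as Dock2 (4.41), Pik3r5 (3.83), Rgs1 (3.85) and Rac2 (3.43) were among the higher ones and the broadly expressed Gnb1 (-0.57) and Plcb3 (-0.51) were the lower ones. Of 10 genes for ligand processing and mRNA turnover 7 were called higher and 1 lower: the gelatinase Mmp9, which cleaves chemokines, had 4.61 and Zfp36, whose protein destabilizes chemokine mRNA, 1.31, whereas Adam10, which sheds Cxcl16, fell by 0.64 on the log2 scale. Of these genes 3, 8 and 3 in the lists as ordered here passed the filter only with a KLG4 library, all of them called higher, against 73.7% of all genes that entered in this way. Among the rest, 3 of 4, 10 of 19 and 4 of 7 were called higher and 0, 2 and 1 lower, against 12.2% and 22.7% of all genes at 1 RPKM or more in both KL libraries. In TRMs 4 of 39 such genes were called higher and 0 lower, against 1.36% and 0.437% of all genes: Cmklr1 (2.48), Mmp12 (1.67), Jak2 (1.41) and Pik3r5 (1.00). Their adjusted p-values by limma were 0.036 to 0.049, close to the threshold. Under TMM scaling and scaling outside mitochondrial genes, 0.1% and 0.0728% of all genes were called higher, and these genes are not reported under those scalings. In MDMs 0 of 40 were called in either direction by limma.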

How the data were processed

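The members, lists and tests were chosen with earlier results of these data known. The submitters' processing notes name Trim Galore 0.6.4, HISAT2 2.0.5 and featureCounts 2.0.0, and the methods an Ensembl release of the GRCm38 build and counting at default settings, which ignore strand. The authors deposited RPKM values, scaled by gene length and by the counted reads of each library, in 1 table per population, with no further scaling. Other deposited columns hold log2 fold changes, p-values raw and adjusted and, in the macrophage tables, mean log2 levels and an F score from the authors' own comparison, and were not used. Counting without strand leaves genes that overlap others uncertain, and Cxcl1, Cxcl2 and Cxcl3 are alike in sequence.

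KLG4 was compared with KL within each table by limma 3.58.1 in R 4.3.3, two-sided, with a variance trend over mean level and the genotype as the only term. Values were log2(RPKM + 0.1), genes had to reach 1 RPKM in 2 of the 4 libraries, and p-values were adjusted by Benjamini-Hochberg over all genes kept. The difference of differences was a contrast of 6 group means over 12 libraries. Depth was recovered from the size of the smallest RPKM steps, and RPKM times gene length gave whole reads (within 0.05) for at least 99.99% of values below 2000 reads, over genes whose length is deposited. Since 17.4% to 32.5% of counts below 30 were odd, mates were mostly both counted, so that precision is lower than depth implies. Per-library values were given for members called at an adjusted p under 0.05 that differed at least 2-fold and reached 5 RPKM in a group mean (up to 20 per population), for members past the study's threshold in populations with fewer than 5 of these, and for the 5 highest members. Others were added after their values were seen. Alternatives were a pseudocount of 1, no filter, quantile scaling, TMM scaling without weights, scaling outside mitochondrial genes, limma-voom on recovered reads, the replicate number as a block, and leaving out each library. 1 member is included in the counts and is not reported here by itself. Coordinates are those of GENCODE for GRCm38, equal to the deposited start and end for 34 of 35 members. The tests were tested on simulated data.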

Additional observations from a re-analysis of the deposited data

Results flagged for a closer look

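For 25 results the KLG4 to KL difference in tumor cells differed from that in another population by the test of the difference itself (limma, adjusted p under 0.05). Against TRMs, the differences in log2 fold change (tumor cells minus TRMs) were 5.32 for Ccl2, 2.94 for Ccl3, 5.43 for Ccl4, 2.31 for Ccl6, 2.60 for Ccl9 and 3.90 for Ccr1. They were 2.57 for Cxcl1, 5.35 for Cxcl12, 3.30 for Cxcl2, 3.20 for Cxcr2 and 3.35 for Cxcr4. For Cxcl16 the value was -1.40, the only negative one, and it was no longer called under quantile scaling, TMM scaling or scaling outside mitochondrial genes. The call was also lost without tumor cell KL replicate 1, either tumor cell KLG4 replicate, TRM KL replicate 1 or TRM KLG4 replicate 2 (-1.43 to -1.17, adjusted p 0.059 to 0.088).

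Against MDMs (tumor cells minus MDMs) they were 6.42 for Ccl2, 2.71 for Ccl3, 4.54 for Ccl4, 2.66 for Ccl6, 3.57 for Ccl9 and 4.55 for Ccr1. They were 3.20 for Cxcl1, 6.22 for Cxcl12, 3.07 for Cxcl14, 3.36 for Cxcl2, 3.07 for Cxcl9, 3.02 for Cxcr2 and 2.91 for Cxcr4. Cxcl12 was under 0.6 RPKM in all TRM libraries and in all MDM libraries but KL replicate 2, so its values depend on the pseudocount. Cxcl9 was under 0.7 RPKM in each tumor cell library and Cxcl14 under 1 RPKM in all MDM libraries but KL replicate 2, neither passed the filter there, and their values depend on it too. Between TRMs and MDMs the difference for Cxcl16 was 2.38.

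Ccl5, Cxcl13 and Cxcr5 were not listed in all 3 tables, and their KLG4 values were above the KL values without overlap in tumor cells and below them in another population. The difference in log2 fold change was 5.16 for Ccl5 (tumor cells minus TRMs), 5.63 for Cxcl13 and 3.92 for Cxcr5 (both tumor cells minus MDMs). The difference was not tested for these genes.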

How the results depend on the processing

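In tumor cells, 26 genes called higher became 25 to 27 under the other settings, and 1 called lower stayed 1. Leaving out a library gave 23 to 27 higher and 0 to 2 lower. In TRMs the 1 gene called higher became 0 with no filter, under quantile scaling, TMM scaling and scaling outside mitochondrial genes. Leaving out a library gave 0 to 3 higher and 0 to 3 lower in TRMs, and 0 to 2 higher and 0 to 5 lower in MDMs. The count of differences was 9 to 14 between tumor cells and TRMs, 9 to 16 between tumor cells and MDMs, and 0 to 5 between TRMs and MDMs when a library was left out. The last was 1 as reported and 0 with a pseudocount of 1, under quantile scaling, TMM scaling or scaling outside mitochondrial genes. The cause was not tested.

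The replicate number as a block gave 27 higher and 1 lower in tumor cells, 2 higher in TRMs (Ccl22 and Cxcl16), 0 in MDMs, and 14, 14 and 0 differences (tumor cells and TRMs, tumor cells and MDMs, TRMs and MDMs). Of all genes it called 20.8% higher and 18.4% lower in tumor cells, 3.48% and 0.801% in TRMs and 0.0% in MDMs. For the differences, in the same order, it called 13.9%, 10.6% and 0.00869% of all genes. The numbers do not pair the libraries: deviations of same-numbered libraries had correlations across genes of 0.019 in tumor cells, -0.060 in TRMs and 0.054 in MDMs.

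Log2 fold changes that changed sign were those of genes not called with all libraries. Cxcl17 in tumor cells was -0.06 without KL replicate 1 and 0.30, a call (adjusted p 0.024), without KL replicate 2, and Cxcl16 was 0.10 and -0.26 (called, adjusted p 0.027) in these settings. In TRMs, Ccl6 was -0.04 (TMM), -0.06 (outside mitochondrial genes) and -0.05 (recovered reads), Cxcl2 was -0.11 (quantile), -0.32 (TMM), -0.34 (outside mitochondrial genes), -0.33 (recovered reads), -0.48 (without KL replicate 2) and -0.04 (without KLG4 replicate 2), up to 0.59 without KL replicate 1, and Cxcl1 ranged from -0.87 (KL replicate 2 left out) to 0.37 (KL replicate 1 left out). In MDMs, Ccl6 was 0.67 (quantile), 0.01 (TMM), 0.05 (without KL replicate 2) and 0.03 (without KLG4 replicate 1), down to -0.09 without KL replicate 1, Cxcl2 was 0.43 (quantile), 0.03 (TMM), 0.18 (without KL replicate 1) and 0.01 (without KLG4 replicate 1), down to -0.19 without KL replicate 2, Ccl3 was -0.28 without KL replicate 2 and Ccl9 -0.10 without KL replicate 1. Of 477 values of single genes outside the left-out libraries, 447 kept direction and call. Of 396 with a library left out, 319 did, 57 lost the call, 10 gained one and 10 changed sign. With 2 libraries a group and both mates counted, genes under 1 RPKM are limited by depth.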
